A study of Mus musculus with 2 samples.

Results

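Ribosome biogenesis and RNA polymerase I genes were followed in the livers of fasted and fed male mice. The members were 44 gene symbols listed by name for their known roles, from nucleolar organizers to subunits of RNA polymerase I. The list was drawn up with earlier results of these data known. All 44 were matched to the arrays, through 62 probes, and all 44 were measured, among 16342 genes measured of 20652 genes named on the array. A gene was counted as measured when its brightest probe was well above background on at least 1 array. Gene expression was measured with 2 one-colour microarrays of total liver RNA, 1 for each group, and each array held RNA pooled from the livers of 3 mice. The fasting group went without food for 16 h by its own label and for about 14 to 16 h overnight by the treatment notes. The feeding group was described as fed ad libitum in its label and as given food after a fast in the treatment notes, so its feeding schedule is not settled. The study's own text speaks of feeding after a fast. The labels give no strain, age or genetic alteration for either pool and name no other treatment, while the study's methods name C57BL/6 J males for its mouse work in general. With 1 pooled array a group there is no replicate check, no test of any difference between the groups was possible, and the spread between mice is not known.

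Ribosomes are built in the nucleolus, where RNA polymerase I transcribes the long precursor of the ribosomal RNAs. Small nucleolar ribonucleoproteins (snoRNPs) guide chemical modification of that precursor, and successive sets of assembly factors cleave and fold it into the small and the large ribosomal subunit. The program consumes much of a cell's nucleotides and amino acids, and it is known to be controlled by nutrient and growth signals, in liver as in other tissues.

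The ribosome biogenesis genes were, with 1 exception, at a higher signal upon feeding than upon fasting. The feeding signal was above the fasting signal for 43 of 44 members, and for 42 of the 43 members that were well above background on both arrays, where 49.8% of all 14514 such genes were above 0. The median member was 1.60-fold higher, a log2 change of 0.68, with quartiles of 0.39 and 0.89. The median of all genes measured was 0.00, a value that quantile normalization largely sets. Nop56, Nop2, Mrto4, Polr1e, Utp20, Wdr12, Bysl and Gtpbp4 were past 2-fold higher, the threshold of the study's methods. These were 8 of 44 members, or 18.2%, beside 3.29% of all genes measured and 3.13% of genes well above background on both arrays. None was past 2-fold lower, where the share over all genes was 4.62%. At a threshold of 1.5-fold, 30 members were higher, or 68.2%, beside 10.5% of all genes, and 1 member, Ubtf, was lower, beside 10.6%. The number past 2-fold depended on the processing: it was 17 when each array was scaled by its median, where 4.39% of all genes passed, and 3 (Nop56, Nop2 and Mrto4) after normexp background correction, where 1.32% passed. Median scaling moved the median of all genes to 0.09. Relative to that median, 10 members were past 2-fold higher, beside 3.35% of all genes. Under both settings 43 of 44 members stayed above 0. In liver RNA of pooled mice, fewer cells of a type and less RNA per cell cannot be told apart.

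**Figure D1:**
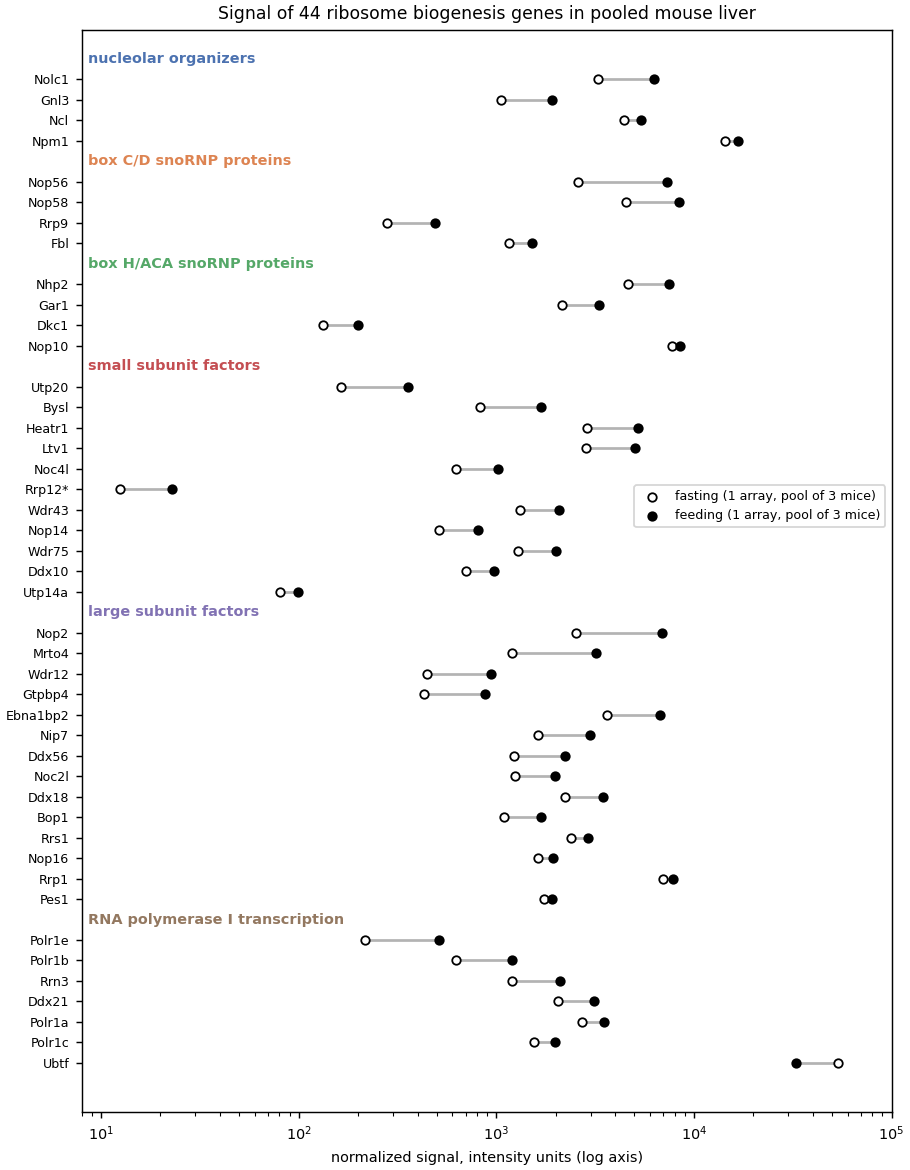
Normalized signal of the 44 members (intensity units, log axis) upon fasting (open points) and upon feeding (filled points), 1 array of 3 pooled mice each, grouped by role. The filled point lies to the right for every member except Ubtf, and the asterisk marks Rrp12, which was not well above background upon fasting.

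The only error the arrays hold is that between copies of a probe. There were 318 probes spotted 10 times and measured. The variances of their spots within each array were added to give an SD for a difference between single spots. This SD was 0.42 on the log2 scale in the dimmest tertile of signal, 0.14 in the middle and 0.10 in the brightest. It holds no variation between the arrays themselves. By this measure 38 of 44 members were higher by over 2 SD, beside 21.8% of all genes, 5 were within 2 SD (Nop10, Rrp12, Utp14a, Rrp1 and Pes1), and Ubtf was lower by over 2 SD. The 21.8% covers the tertiles in equal parts, while most members were bright, where a smaller change passes 2 SD. The share of all genes at the members' brightness was not worked out. Polr1c, a subunit shared by RNA polymerases I and III, is itself spotted 10 times. Its spots lay between 1446 and 1643 upon fasting, with a median of 1549, and between 1818 and 2162 upon feeding, with a median of 1962. The lowest feeding spot was above the highest fasting spot, although the change of Polr1c was only 1.27-fold. These spots share 1 pool of RNA a group, so their spread covers the measurement on the array and not the mice. The members were mostly bright: 31 lay in the brightest tertile of all genes, 11 in the middle and 2 in the dimmest. Of the 8 past 2-fold, 5 were in the middle tertile, where 4.06% of genes were past 2-fold higher, and 3 in the brightest, where 2.09% were.

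**Figure D2:**
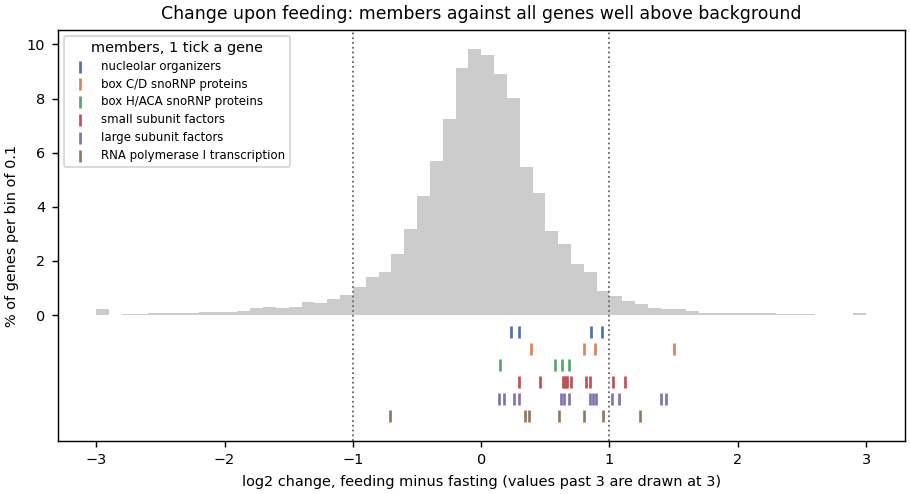
Log2 change, feeding minus fasting, of all genes well above background on both arrays (grey, percent of genes per bin of 0.1) with a tick for each member below, coloured by role. The dotted lines mark 2-fold, and the members lie from -0.71 to 1.51 with a median of 0.68.

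Promoters of this gene class are known for the E-box CACGTG, the element that MYC and related factors bind, so it was looked for in the promoter entries of the members. The entries were those of RefSeq (GRCm38.p6), from 250 bases before to 50 bases after a gene's start, and 39 of 44 members had at least 1, giving 47 entries. The sequence CACGTG, which reads the same on both strands, was in 6 of 47 entries, or 12.8%, and in 2349 of 32851 entries of all genes, or 7.15%. All 6 members that hold it are shown, among them Nop2 and Utp20, which were past 2-fold, and Pes1, the member closest to no change. No match was found for Nop56, Mrto4, Polr1e, Wdr12, Bysl and Gtpbp4, the other members past 2-fold. The 5 members without an entry could not be searched. The capitals mark the motif and the lower case its surroundings, written on the strand of the gene.
Nop2, chr6:125131799-125131852, + strand, motif 60 bases before the start: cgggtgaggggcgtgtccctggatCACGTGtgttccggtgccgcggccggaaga
Rrn3, chr16:13780460-13780513, + strand, motif 215 bases before the start: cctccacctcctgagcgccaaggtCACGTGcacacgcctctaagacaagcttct
Rrn3, chr16:13780627-13780680, + strand, motif 48 bases before the start: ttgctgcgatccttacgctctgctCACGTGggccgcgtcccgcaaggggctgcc
Ltv1, chr10:13193092-13193121, - strand, motif from base 29 after the start: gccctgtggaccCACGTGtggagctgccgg
Utp20, chr10:88826765-88826789, - strand, motif from base 38 after the start: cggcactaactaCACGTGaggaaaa
Wdr43, chr17:71616220-71616249, + strand, motif from base 18 after the start: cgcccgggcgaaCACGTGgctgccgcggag
Pes1, chr11:3963965-3963994, + strand, motif from base 3 after the start: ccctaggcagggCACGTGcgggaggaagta
The log2 changes of these members were 1.44 for Nop2, 1.12 for Utp20, 0.82 for Ltv1, 0.80 for Rrn3, 0.66 for Wdr43 and 0.14 for Pes1. A match in these letters is a description of the window and no measure of binding, and the share among the members rests on 6 entries.

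Among the nucleolar organizers, 2 of 4 were past 1.5-fold and none was past 2-fold, with a median of 1.49-fold. Nolc1, a chaperone of snoRNPs that travels between nucleolus and cytoplasm, had a normalized signal of 3281 upon fasting and 6319 upon feeding, or 1.93-fold higher. Its second probe gave nearly the same log2 change, 0.98 against 0.95. Gnl3, the nucleolar GTPase nucleostemin, went from 1057 to 1919, or 1.81-fold. The most abundant nucleolar proteins moved less. Ncl (nucleolin), which binds the nascent precursor RNA, was at 4417 and 5424, a log2 change of 0.30. Npm1 (nucleophosmin), a histone and ribosomal protein chaperone, was at 14289 and 16784, a log2 change of 0.23, and its 5 probes were all higher, by 0.17 to 0.58.

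The proteins of box C/D snoRNPs, which guide methylation of ribosomal RNA, held the member with the largest change. All 4 were higher and 3 of 4 were past 1.5-fold, with a median of 1.80-fold. Nop56, a core protein of these particles, had a signal of 2585 upon fasting and 7345 upon feeding, which is 2.84-fold higher and a log2 change of 1.51. Only 1.11% of all genes measured had a larger increase than Nop56. Its other probe, at 471 and 1329, was 2.82-fold higher, so that both probes were past 2-fold. Nop58, the partner of Nop56 in the same particle, went from 4519 to 8379, or 1.85-fold. Rrp9, which belongs to the particle of the U3 snoRNA, was at 280 and 489, or 1.74-fold. Fbl (fibrillarin), the methyltransferase of these particles, moved least of the 4, from 1162 to 1524, or 1.31-fold.

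Box H/ACA snoRNPs guide the conversion of uridine to pseudouridine, and their 4 core proteins are also part of telomerase. All 4 were higher upon feeding, 2 past 1.5-fold and none past 2-fold, with a median of 1.52-fold. Nhp2 went from 4634 to 7467, or 1.61-fold, and Gar1 from 2142 to 3319, or 1.55-fold. Dkc1 (dyskerin), the pseudouridine synthase itself, was at 133 and 199, or 1.49-fold. Nop10, the smallest of the core proteins, was at 7729 and 8546, a log2 change of 0.15 that is within 2 SD of replicate spots. Within both kinds of snoRNP the proteins thus differed in size of change, from 1.31-fold to 2.84-fold for C/D and from 1.11-fold to 1.61-fold for H/ACA.

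The factors of the small subunit act mainly in the processome, the large particle that forms on the 5′ end of the precursor RNA. All 11 were higher upon feeding, 9 past 1.5-fold and 2 past 2-fold, with a median of 1.59-fold. Utp20, a very large scaffold protein of the processome, was at 164 upon fasting and 356 upon feeding, or 2.17-fold. Bysl (bystin), needed for maturation and export of the small subunit precursor, was at 827 and 1690, or 2.04-fold. Each of these was measured by 1 probe. Heatr1, which also takes part in transcription by RNA polymerase I, went from 2883 to 5186, or 1.80-fold. Ltv1, which accompanies the precursor into the cytoplasm, went from 2844 to 5009, or 1.76-fold.

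A group of small subunit factors changed to nearly the same degree, between 1.56-fold and 1.62-fold. Noc4l, a partner of Nop14, went from 627 to 1018, and Nop14 itself from 515 to 805. The WD-repeat proteins Wdr43 and Wdr75, which belong to the part of the processome that binds the precursor first, went from 1318 to 2089 and from 1288 to 2006. A second probe of Wdr43 gave a log2 change of 0.75 beside 0.66. Rrp12, an export factor for ribosomal subunits, was not well above background upon fasting, at 12.5, and reached 22.9 upon feeding. Set against the lowest well-measured fasting signal of 14.4, a bound that is not strict, it was 1.59-fold higher. After normexp background correction the log2 change of Rrp12 was 0.09. The change of Ddx10, an RNA helicase, was 1.37-fold, from 706 to 970. Utp14a, which activates a helicase of the processome, was the least changed of the small subunit factors, at 80.8 and 99.1 or a log2 change of 0.30, and its second probe was lower upon feeding, by 0.18.

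The large subunit factors were all higher as well, 10 of 14 past 1.5-fold and 4 past 2-fold, with a median of 1.70-fold and log2 changes from 0.14 to 1.44. Nop2, a methyltransferase of the large ribosomal RNA and a long-known proliferation antigen, went from 2542 to 6895, or 2.71-fold. Mrto4, which holds the place of the stalk protein P0 on the precursor, went from 1206 to 3193, or 2.65-fold. Of all genes measured, 1.28% and 1.36% had larger increases than Nop2 and Mrto4. Gtpbp4, a GTPase of the nucleolar precursor, was at 432 upon fasting and 875 upon feeding, or 2.02-fold, just past the threshold.

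Bop1, Pes1 and Wdr12 form a single complex, PeBoW, that is needed to process the large subunit RNA, and the arrays gave 3 different sizes of change for them. Wdr12 went from 448 to 941, or 2.10-fold. Bop1 was at 1090 and 1682, or 1.54-fold. Pes1 was at 1753 and 1925, a log2 change of 0.14, and its second, much dimmer probe was lower, at 33.7 and 17.9, a log2 change of -0.91. The value of Pes1 therefore depends on the probe: the mean of both was -0.39.

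Of the other large subunit factors, 5 were between 1.56-fold and 1.86-fold. Ebna1bp2, a scaffold protein of early precursors, went from 3632 to 6752, or 1.86-fold, but its other probes gave log2 changes of 0.60 and 0.11 beside 0.89. Nip7, needed for processing of the precursor RNA, went from 1634 to 2990, or 1.83-fold. The helicases Ddx56 and Ddx18 went from 1233 to 2223 and from 2222 to 3474, or 1.80-fold and 1.56-fold. Noc2l, which is also known as an inhibitor of histone acetylation, was at 1237 and 1989, or 1.61-fold. The remaining members of this role were little changed. Rrs1, which helps to place a ribonucleoprotein of the large subunit, was at 2390 and 2928 (log2 change 0.29), and Nop16 at 1617 and 1928 (0.25). Rrp1 was at 6945 and 7874 (0.18), within 2 SD of replicate spots, and its second probe was slightly lower, by 0.09.

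In the transcription group, the subunits of RNA polymerase I did not change by the same amount. Polr1e, the subunit known as PAF53, went from 217 upon fasting to 511 upon feeding, or 2.36-fold, and its second probe gave a log2 change of 1.27 beside 1.24. Polr1b, the second-largest subunit, went from 624 to 1203, or 1.93-fold. Polr1a, the largest and catalytic subunit, was at 2718 and 3524, or 1.30-fold. Rrn3, the initiation factor that recruits the polymerase and is known as a target of growth signals, went from 1204 to 2098, or 1.74-fold. Ddx21, a helicase that links transcription and processing of the ribosomal RNA, was at 2048 and 3119, or 1.52-fold, with both probes alike.

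Ubtf, the factor that binds and opens the ribosomal DNA for RNA polymerase I, was the exception in direction. Its brighter probe had a signal of 53470 upon fasting and 32740 upon feeding, 1.63-fold lower and a log2 change of -0.71, which did not pass 2-fold. Its second probe was at 60.1 and 65.7, a log2 change of 0.13. The probes thus disagreed in direction and in brightness, and the change of Ubtf lay between -0.83 and -0.29 over the processing alternatives. Among the 14 members with more than 1 probe, the probes of 10 were all higher and those of 4 (Ubtf, Pes1, Rrp1 and Utp14a) had both directions, and 58 of 62 probes were higher upon feeding.

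**Figure D3:**
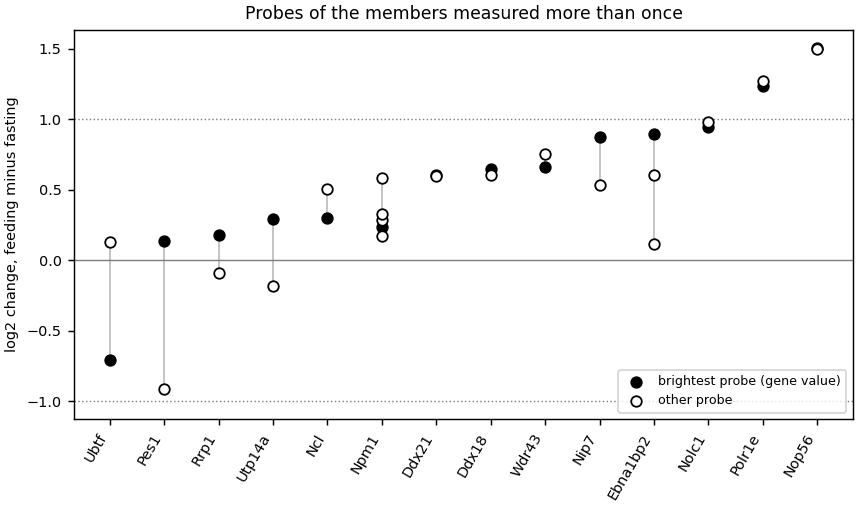
Log2 change of each probe of the 14 members with more than 1 probe, with the brightest probe filled and the others open. Both probes of Nop56 and of Polr1e lie above the dotted line at 2-fold, while the probes of Ubtf, Pes1, Rrp1 and Utp14a lie on both sides of 0.

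The genes of the same machinery that are not among the members were also mostly higher, though by less. Of 127 further assembly factors and RNA polymerase I genes, 125 were measured, 110 were above 0 and their median was 0.41, or 1.33-fold. In this wider list 9 genes were past 2-fold higher, or 7.20%, and 1 was past 2-fold lower, or 0.80%, beside 3.29% and 4.62% of all genes. Of 56 other small subunit factors, 47 were above 0, with a median of 0.43, and 2 were past 2-fold higher, or 3.57%, close to the share of all genes. These were Dhx37, a helicase that dismantles the processome, which rose from 216 to 505, or 2.33-fold, and Utp18, which rose from 18.8 to 38.4, or 2.05-fold, at a low signal. Riok1, a kinase of late small subunit maturation, went the other way, from 693 to 263, or 2.64-fold lower. Of 51 other large subunit factors measured, 47 were above 0 and 7 were past 2-fold higher, or 13.7%, with a median of 0.51. The largest of these were Rsl24d1, a placeholder for a ribosomal protein, from 209 to 670 or 3.20-fold, Ppan, an early assembly factor, from 1326 to 3600 or 2.72-fold, Nle1, from 145 to 318 or 2.19-fold, and Rrp15, from 1176 to 2527 or 2.15-fold.

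The list of other RNA polymerase I genes, mainly but not only subunits and initiation factors, had a median of 0.30, with 16 of 18 above 0 and none past 2-fold. The largest change was that of Cd3eap (Polr1g), the partner of Polr1e in the polymerase, from 56.4 to 109 or 1.94-fold, followed by Taf1c, a subunit of the initiation factor SL1, from 46.2 to 72.6 or 1.57-fold. The RNA exosome and the exonucleases and RNase P and MRP proteins that trim ribosomal RNA had a median of 0.48 (0.31 above that of all genes after normexp), with 18 of 23 above 0. Rpp38, a protein of RNase P and MRP, rose from 411 to 1163, or 2.83-fold, and Mphosph6, an exosome cofactor, from 256 to 512, just past 2-fold. Exosc9, a core subunit of the exosome, fell from 21711 to 6168, or 3.52-fold. RNA polymerase III, which makes the smallest ribosomal RNA, had 17 of 20 genes above 0 and none past 2-fold, with a median of 0.32. Its repressor Maf1 was lower, from 2902 to 1598 or 1.82-fold, and the initiation factor Gtf3c6 was at 1309 and 2150, or 1.64-fold higher.

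The cytosolic ribosomal proteins, the products that these factors assemble, were within a narrow range. Of 76 cytosolic ribosomal protein genes, 71 were above 0, but none was past 1.5-fold in either direction, and their median was 1.13-fold with a range of -0.20 to 0.46 on the log2 scale. The largest changes were those of Rpl29, at 31844 and 43909 or 1.38-fold, and Rpl3, at 16051 and 22018 or 1.37-fold. Higher by over 2 SD of replicate spots were 33 of 76, or 43.4%, beside 21.8% of all genes. All 76 lay in the brightest tertile, where the SD was smallest, while the 21.8% covers all tertiles. These shares are therefore not at like brightness. Of 77 mitochondrial ribosomal protein genes, 70 were above 0, with a median of 1.24-fold. Past 1.5-fold higher were 9, or 11.7%, close to the 10.5% of all genes. Higher by over 2 SD were 52, or 67.5%, beside 21.8% of all genes, and these genes too lay mostly in the brightest tertile. Their log2 median of 0.31 was close to the 0.30 of the other RNA polymerase I genes, and Mrpl47 was past 2-fold, from 852 to 1836.

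**Figure D4:**
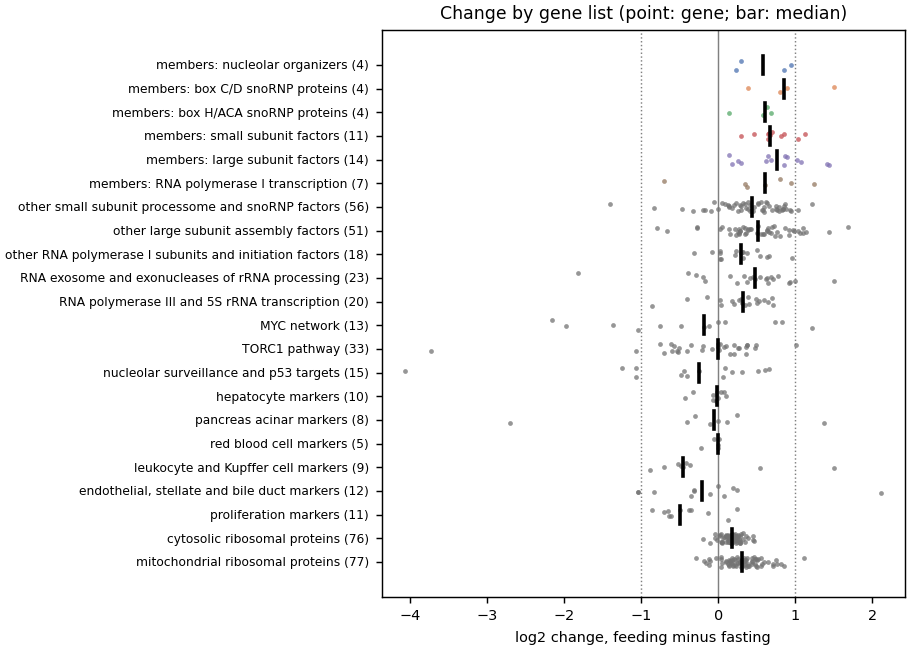
Log2 change, feeding minus fasting, of the members by role and of 16 other gene lists (point: gene, bar: median, number of genes measured in parentheses, dotted lines: 2-fold). The medians of the 6 member roles lie between 0.58 and 0.85, those of the cytosolic ribosomal proteins and the TORC1 pathway at 0.18 and 0.00.

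The MYC network list, which includes factors that bind the E-box, holds MYC with its partners and its competitors. Its median is therefore no measure of MYC activity, which was not measured. The summed signal of the list was 27284 upon fasting and 32888 upon feeding. Of 13 genes measured, 4 were above 0, 4 were past 2-fold lower and 1 was past 2-fold higher, or 30.8% and 7.69%, beside 4.62% and 3.29% of all genes. The median was -0.18, but relative to the median of all genes it was -0.49 with the mean of each gene's probes and -0.48 over genes well above background on both arrays. Mxd1, which competes with MYC for the partner Max and represses its targets, fell from 2114 to 473, or 4.47-fold. Mycl fell from 308 to 78.5, or 3.93-fold, and Mga, another Max partner, from 407 to 158, or 2.58-fold. Mycn rose from 22.2 to 51.6, or 2.32-fold, at a low signal. Myc, named after its values were seen, was at 3026 upon fasting and 2161 upon feeding, 1.40-fold lower. Mlxipl, the brightest gene of the list and also named after its values were seen, was at 11802 and 20940, 1.77-fold higher.

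Markers of the cells in liver were set beside these values. All 10 hepatocyte markers were measured, none was past 1.5-fold, and their summed signal was 1023200 upon fasting and 994704 upon feeding, so both pools carried the defining markers of liver, with Hnf4a at a log2 change of -0.43 and Cps1 at -0.33. Leukocyte and Kupffer cell markers (9 of 10 measured) had a median 0.727-fold and a summed signal of 64831 and 43351, with Itgam 2.83-fold higher, from 286 to 812, and 7 of 9 at or below 0. Endothelial, stellate and bile duct markers (12 of 12 measured) summed to 34625 and 26862. There Sox9 was higher by 2.11, and Pecam1 and Acta2 were both at -1.04. Proliferation markers (11 of 12 measured) had a median of 0.710-fold (a log2 value of -0.49, and -0.28 relative to all genes after normexp) and sums of 13574 and 11182, with Birc5 at -0.86 and Ccna2 at -0.70, and 9 of 11 were at or below 0. Red blood cell markers (5 of 8 measured) summed to 37012 and 36090, with Alas2 at -0.23 and Hba-a1 at -0.05. Pancreas acinar markers (8 of 10 measured) summed to 4630 and 4190. Both at low signal, Cela2a was at -2.70 and Prss2 was higher by 1.37 against the lowest well-measured fasting signal. The part of these cell types in the members' values was not tested.

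**Figure D5:**
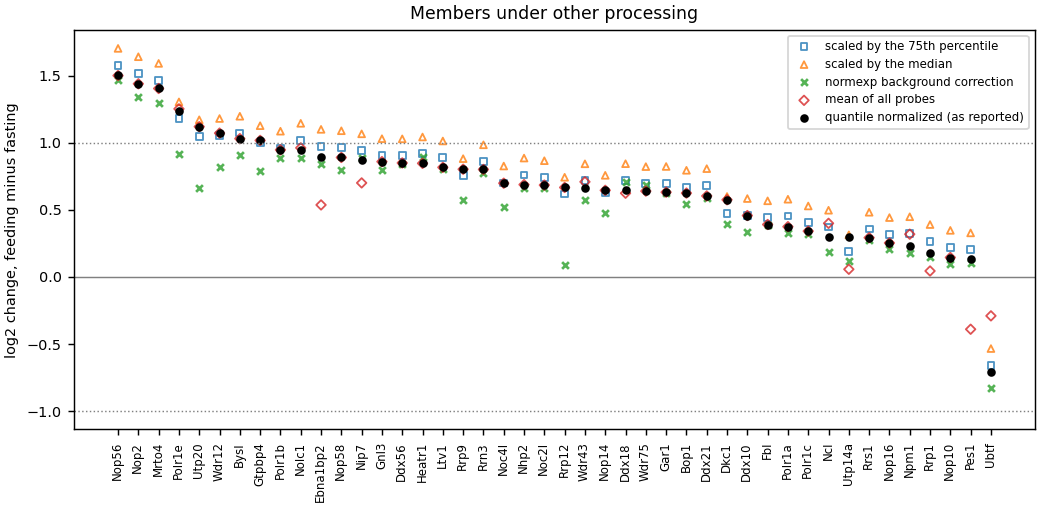
Log2 change, feeding minus fasting, of the 44 members as reported (filled points) and under 4 processing alternatives (open or crossed marks), ordered by the reported change. Scaling by the median moved all members up, normexp background correction moved most of them down (Utp20 from 1.12 to 0.66), and the mean of all probes turned Pes1 below 0.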

How the data were processed

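Liver RNA was labelled with Cy3 by the authors and hybridised to Whole Mouse Genome arrays. Spots were extracted with Agilent Feature Extraction, which the submitters' processing notes name and the file headers give as version 11.0.1.1 (array design build mm9). The deposited intensities, background-subtracted but not normalized between arrays, were the starting point. The deposited value table equals the mean local background on all 44397 spots of both arrays and gave no result.

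Control and outlier spots were dropped, log2 processed signals of spots that share a probe were averaged, and the probes were quantile normalized, the method that the study's methods name. No spot was saturated (0 on each array). The arrays share 1 slide and 1 scan. The share of spots well above background was 63.1% upon fasting and 72.3% upon feeding. Probes were named by RefSeq transcript (27218 of 39402 matched 1 gene in the GRCm38.p6 table), with 4 listed symbols translated to the table's older or newer ones from general knowledge. The brightest probe stands for a gene. Where it was not well above background on 1 array, the change was set against the lowest signal well above background there, a bound that is not strict, and to 0 where that bound was not exceeded (1158 genes). With 1 array a group, genes past 2-fold were counted without a test, and the number of arrays limits the precision.

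The members and lists were chosen with earlier results of these data known. All members are named. From every other list the genes past 2-fold are named, at most the 4 largest changes, or the 2 largest changes where none is. Alternatives tried were each array's 75th percentile or median as its scale, normexp (offset 50, limma 3.58.1, R 4.3.3) on the spot's median signal, the mean of probes, other filters on dim or outlier spots, no bound, and thresholds of 1.5-fold and 3-fold. Python 3.11.15 with numpy 2.4.6 and pandas 2.3.3 was used. The normalization and the 2-fold calls were tested on simulated arrays. There every probe was well above background and noise had the same size at every brightness, so the bound and the filter on dim probes were not tested.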

Additional observations from a re-analysis of the deposited data

How the results depend on the processing

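No paired analysis was possible because each group has 1 sample. No member was past 2-fold lower under any of the 8 alternatives other than thresholds, and the members' median minus that of all genes stayed between 0.63 and 0.75. The number of members past 2-fold higher was 8 or 9 under 6 of them and 3 after normexp, where 1.32% of all genes passed. When scaled by the median it was 17, beside 4.39% of all genes. Relative to the median of all genes, which that scaling moved to 0.09, it was 10, beside 3.35% of all genes. With the processing as reported, 30 members were higher at 1.5-fold, with 1 lower, and 0 were higher at 3-fold. Of 351 single member values, 52 moved by at least the spread of replicate spots and 1, Pes1, had the other sign (-0.39 with the mean of probes). Over all genes, the numbers past 2-fold higher and lower (537 and 755 as reported) were 215 and 312 after normexp, 838 and 1185 with no filter on dim probes, 1714 and 1736 at 1.5-fold and 158 and 311 at 3-fold, and 876 were higher with no lower bound. The share of higher among these calls was 41.6% as reported, 52.5% when scaled by the median and 53.6% with no lower bound. The median of the exosome list minus that of all genes was 0.31 and that of proliferation markers -0.28 after normexp. For the MYC network it was -0.49 with the mean of probes and -0.48 for genes well above background on both arrays, and for pancreas markers -0.20 on both arrays and -0.23 with no lower bound. The cause of these differences was not tested. The arrays cannot show how mice within a group vary, and signals near background, such as that of Rrp12 (0.09 after normexp), are known least well.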

Other observations

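The regulators upstream of ribosome biogenesis were described separately, since they had no common direction. The TORC1 pathway list holds the kinase complex that couples nutrients to ribosome production, with both its activators and its inhibitors. It had 33 of 34 genes measured, 16 above 0 and a median of 0.00. That median is no measure of the pathway's activity, which was not measured. Ddit4 (REDD1), an inhibitor of TORC1 that is induced by stress and glucocorticoids, fell from 27114 upon fasting to 2046 upon feeding, or 13.3-fold. Sesn1, a leucine-sensing inhibitor of the pathway, fell from 1581 to 753, or 2.10-fold. Fnip2, a partner of folliculin that acts on the Rag GTPases, rose from 495 to 993, or 2.01-fold.

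The list of nucleolar surveillance and p53 targets had 15 of 16 genes measured, 7 above 0 and a median of -0.26, with 4 past 2-fold lower, or 26.7% beside 4.62% of all genes, and none past 2-fold higher. Trp53inp1, a p53 target that takes part in autophagy, fell from 17284 to 1038, or 16.7-fold. Bbc3 (PUMA), which promotes cell death, fell from 1552 to 656, or 2.37-fold, and the cell cycle inhibitor Cdkn1a (p21) from 4779 to 2276, or 2.10-fold. The fourth was Sesn1, which also stands in the TORC1 list, and Rrp8 of this list is also a large subunit factor.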
